A study of Mus musculus with 24 samples.

Results

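Loss of the terminal uridylyl transferases Tut4 and Tut7 was examined in mouse preleukemic cells (preLSC) collected 180 min after 4-thiouridine (4SU) was taken away. The libraries titled with this chase time were 6 of the 24 in the series, 3 from Tut4/7 Vav-iCre cDKO cells and 3 from control cells. All of them were primary fetal liver cells, enriched for c-Kit, into which Meis1 and Hoxa9 had been introduced by retrovirus, and were grown with stem cell factor, IL-6 and IL-3. Per the methods, both genotypes carried Tut4 fl/fl and Tut7 fl/fl alleles, and the controls lacked the Vav-iCre transgene, which is active throughout the haematopoietic system and is therefore not specific to leukemic cells. Cells had been labelled with 2.9 µM 4SU for 12 h, so a collection at 180 min followed a chase of 3 h. The remaining libraries, from 0, 60 and 540 min, served only to place the 180 min values.

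TUT4 and TUT7 add uridines to the 3′ end of RNA. Such short U tails mark mRNAs with shortened poly(A) tails for decay, and on the precursors of some microRNAs they alter processing. In SLAM-seq, 4SU built into new RNA is alkylated and then read as C in place of T. After the label is removed, the share of covered T positions read as C (the conversion rate) declines for each gene as labelled transcripts are lost and unlabelled ones take their place. Hoxa9 and Meis1 together hold myeloid progenitors in a self-renewing state, in which genes of neutrophil and monocyte maturation are otherwise switched on progressively. The comparison at 180 min therefore gave, for each gene, a steady read abundance and the label still present.

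Reads came from the 3′ ends of transcripts and were counted in annotated 3′UTRs. Abundance is given as CPM, a gene's reads scaled to the same total of 3′UTR reads in every library. The 6 libraries held 4915696 to 5532672 reads in 3′UTRs and were thus of similar depth. The share of filtered reads that fell in 3′UTRs was 49.9% ± 0.765 (SD, n = 3) in control and 47.4% ± 1.17 (SD, n = 3) in cDKO, without overlap between the groups. Replicates of cDKO differed from each other more than those of control did: relative to its degrees of freedom, the chi-square of read counts over genes was 7.10 to 17.5 between cDKO pairs and 3.67 to 4.28 between control pairs. The Y-linked helicase gene Ddx3y was unread in control (0 reads in each library) and had 86, 693 and 13 reads in cDKO replicates 1, 2 and 3. Xist, transcribed from the inactive X, stood at 199, 455 and 360 CPM in control and at 1867, 49.8 and 2059 CPM in cDKO, so the cDKO cultures were not alike in these genes. The part of this difference in the results was not tested.

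The targeted genes were measured first. Tut4 reads stood at 77.6, 88.3 and 105 CPM in control and at 35.6, 33.6 and 34.6 CPM in cDKO. Tut7 reads stood at 61.0, 66.1 and 50.6 CPM in control and at 26.5, 26.2 and 33.3 CPM in cDKO. For both genes every cDKO library lay below every control library. Groups without overlap, in either direction, were found in 3786 of the 10142 genes tested for abundance (37.3%). The log2 fold changes were -1.40 (SE 0.137, adjusted p = 8.24e-06) for Tut4 and -1.06 (SE 0.155, adjusted p = 2.57e-04) for Tut7 by edgeR's quasi-likelihood test with Benjamini-Hochberg adjustment, which is the abundance test used throughout. Reads from the 3′ end of both genes remained in cDKO, and a 3′ tag that lies outside the deleted part of a gene does not check the deletion.

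The amount of label present at 180 min differed between the genotypes as a whole. The library-wide conversion rate was 1.06%, 1.12% and 1.05% in control replicates 1, 2 and 3, and 0.550%, 0.569% and 0.386% in the cDKO replicates. The highest cDKO library was below the lowest control library, and cDKO replicate 3 was the lowest of the 6. The mean was 1.08% ± 0.0358 in control and 0.502% ± 0.101 in cDKO (SD, n = 3 each), a ratio of 2.15. The exact permutation test (two-sided) gave p = 0.1, the smallest value possible with groups of 3. The share of reads with at least 1 conversion was 19.3% ± 0.551 in control and 10.0% ± 1.81 in cDKO (SD, n = 3 each).

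**Figure D1:**
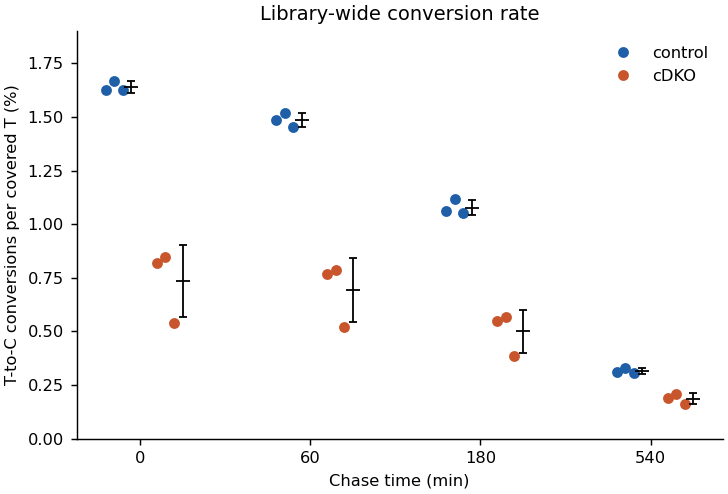
The library-wide conversion rate (y axis, percent of covered T positions read as C) is plotted against chase time in minutes (x axis, times spaced evenly), with 1 point per library and the mean ± SD beside each group of 3. At each of the 4 times every cDKO point is below every control point, and at 180 min the cDKO points ranged from 0.386% to 0.569%.

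This difference was already there when the label was removed. Relative to the 0 min library of the same genotype and number, the 180 min rate was 65.5%, 67.0% and 64.6% in control and 67.0%, 67.3% and 71.2% in cDKO. The means were 65.7% ± 1.17 and 68.5% ± 2.33 (SD, n = 3), and the groups did not overlap, with p = 0.1 by the exact permutation test. No floor rate was subtracted here. A fixed floor, such as the 0.141% used below for the turnover classes, is a larger part of the lower cDKO rates. With equal loss of label it would raise the cDKO share more than the control share. Whether cDKO as a whole kept a larger share of its label is therefore not decided by these values. The labels name the chase time as the batch, so the values at 0 and 180 min came from different batches, whereas the 2 genotypes at 180 min shared one.

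With rates unscaled, 7317 of the 7407 genes tested (98.8%) had a lower conversion rate in cDKO, and the median log2 fold change was -1.08. In all, 5339 genes (72.1%) passed an adjusted p of 0.05, 5337 of them lower in cDKO. The 2 that were higher were Cxcr4 (log2 fold change 2.07, SE 0.229, adjusted p = 2.73e-14), the receptor for the chemokine Cxcl12, and Snx18 (0.99, SE 0.305, adjusted p = 2.92e-03), a sorting nexin of the endocytic pathway. Because nearly every gene followed the library, rates of single genes are from here on compared relative to the library-wide rate, and called the relative conversion rate.

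Read abundance differed widely between the genotypes. Of 10142 genes tested, 1949 (19.2%) passed an adjusted p of 0.05, with 930 (9.17%) higher and 1019 (10.0%) lower in cDKO. Among those called, 370 were at least 2-fold higher and 310 at least 2-fold lower. The number of genes called in abundance at 180 min was 1240, 1196 and 1296 without control replicate 1, 2 or 3 in turn, and 2255 without cDKO replicate 3. In bulk libraries such as these, fewer cells of a type and less RNA per cell cannot be told apart. Of the 1949 genes, 1033 were called in the same direction at 0 min, 1339 at 60 min and 1280 at 540 min, and none was called in the opposite direction at any of these times. There were 330 genes called at 180 min alone among the 4 times. No gene passed the test of a different change from 0 to 180 min between the genotypes (edgeR, 0 of 10545, against 295 at an unadjusted p below 0.05, and 0 by DESeq2).

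Genes of neutrophil granules and maturation were mostly lower in cDKO. Of 13 members tested, 8 fell and 1 rose, against 19.2% called over all genes, and the median log2 fold change was -1.35 beside 0.01 over all genes tested. S100a8, a subunit of the neutrophil calcium-binding protein calprotectin, stood at 21.1, 25.4 and 16.3 CPM in control and at 0.407, 0 and 0 CPM in cDKO (log2 fold change -7.08, SE 0.574, adjusted p = 1.74e-06). Its partner S100a9 had a log2 fold change of -6.76 (adjusted p = 3.69e-05) and Mmp8, neutrophil collagenase, one of -5.71 (adjusted p = 5.52e-06). S100a8 and S100a9 lie on chromosome 3, whose genes as a whole were lower in cDKO by far less than these. The granule proteases varied more among the cDKO cultures. Prtn3, proteinase 3, stood at 2761, 2743 and 2616 CPM in control and at 800, 586 and 327 CPM in cDKO (log2 fold change -2.26, SE 0.372, adjusted p = 0.0216), a call that was lost with any 1 control library left out and without cDKO replicate 2. Elane, neutrophil elastase, stood at 1452, 1568 and 1270 CPM in control and at 154, 28.5 and 14.3 CPM in cDKO, without overlap, but did not pass the test (log2 fold change -4.47, SE 1.03, adjusted p = 0.0553). Ctsg, cathepsin G, differed less and more evenly, the control mean being 3073 ± 91.7 CPM and the cDKO mean 1590 ± 113 CPM (SD, n = 3; log2 fold change -0.97, adjusted p = 8.67e-07). The member that rose was Cebpe, a transcription factor of granulocyte maturation, from 8.87 ± 2.35 CPM in control to 28.6 ± 10.7 CPM (SD, n = 3; adjusted p = 2.32e-03). Mpo, myeloperoxidase, averaged 530 CPM in control and 62.5 CPM in cDKO but was not called (adjusted p = 0.268). Nor was Gfi1, at 152 and 155 CPM (adjusted p = 0.98). Other members were hardly read in either genotype: Fcnb, Ltf and Ngp had 0 reads in all 6 libraries, and Camp had 1. The summed level of the list was 9307 to 9741 CPM in control and 3057 to 4187 CPM in cDKO, and 5 to 8 members fell when each library was left out in turn.

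Monocyte and macrophage genes behaved similarly. Of 11 tested, 7 fell and 1 rose (72.7% called, beside 19.2% over all genes), with a median log2 fold change of -1.62. F13a1, the A subunit of coagulation factor XIII, stood at 169, 196 and 137 CPM in control, whereas cDKO had 0.203 CPM in replicate 1 and 0 in the others (log2 fold change -10.87, SE 0.348, adjusted p = 7.40e-10). Csf1r, the receptor for M-CSF, stood at 26.9 to 53 CPM in control and at 2.65, 0 and 0.564 CPM in cDKO (log2 fold change -5.06, adjusted p = 7.83e-03). The log2 fold change was -5.16 for Cybb, the catalytic subunit of the phagocyte NADPH oxidase (adjusted p = 6.09e-04), -4.65 for Ctss, a lysosomal protease (adjusted p = 1.52e-06), and -1.32 for Irf8, a transcription factor of the monocyte lineage (adjusted p = 4.74e-06). The list was not uniform. Adgre1, which encodes the macrophage antigen F4/80, was at 17.9, 22.2 and 19.7 CPM in control and at 179, 196 and 285 CPM in cDKO (log2 fold change 3.45, SE 0.198, adjusted p = 5.07e-06). Ly6c2 levels were close, with means of 3782 ± 121 CPM (control) and 3663 ± 471 CPM (cDKO; SD, n = 3), a log2 difference of -0.07 that did not pass the test (adjusted p = 0.661). Both genes of the dendritic cell and MHC class II list that could be tested fell, with Tcf4 at -2.93 (adjusted p = 2.67e-05).

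Among genes of the mast cell, basophil and erythroid lineages, those called were higher in cDKO. Of 8 mast cell and basophil genes tested, 4 rose, none fell and 4 did not pass the test, with a median log2 fold change of 0.60. Cpa3, mast cell carboxypeptidase, had 0 reads in each control library and 245, 283 and 430 reads in cDKO, at least 328-fold higher in cDKO against a floor of 3 counts over the control group (adjusted p = 2.13e-07). Gata2, a transcription factor of stem cells, mast cells and early erythroid cells, stood at 5.21, 6.35 and 7.95 CPM in control and at 76.5, 88.9 and 134 CPM in cDKO (log2 fold change 3.91, SE 0.25, adjusted p = 3.10e-06). Hdc, which makes histamine, rose by 6.78 (SE 1.14, adjusted p = 0.0189), with cDKO libraries at 43.1, 14.4 and 78.4 CPM, and was no longer called with any 1 control library left out or without cDKO replicate 1. Defining mast cell genes were nevertheless missing: Fcer1a, Cma1, Mcpt4, Tpsb2, Tpsab1 and Slc18a2 had 0 reads in all 6 libraries. The summed list stood at 3364 to 3712 CPM in control and 3353 to 4107 CPM in cDKO, most of it from Srgn, a proteoglycan core protein that other haematopoietic cells also express (3224 CPM in control and 2813 CPM in cDKO).

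Of 5 erythroid genes tested, 2 rose, none fell and 3 did not pass the test (40.0% called, beside 19.2% over all genes). When each library was left out in turn, 1 to 3 rose. Hbb-bt, an adult beta globin, had 0 CPM in 2 control libraries and 2.71 CPM in control replicate 3, against 1419, 1476 and 2001 CPM in cDKO (log2 fold change 10.68, SE 0.670, adjusted p = 1.19e-03). Other globin genes of the list had few reads or none. Hbb-bs and Hbb-bh1 had 0 reads in all 6 libraries. The alpha globin genes Hba-a1 and Hba-a2 averaged 0.134 and 0 CPM in control and 1.49 and 3.04 CPM in cDKO, too few to be tested. Car2, carbonic anhydrase 2, stood at 8.42, 13.9 and 9.94 CPM in control and at 93.4, 52.5 and 236 CPM in cDKO (log2 fold change 3.55, adjusted p = 0.0448), a call lost with any 1 control library left out and without cDKO replicate 1. Several genes of late erythroid cells and some regulators were not seen, since Gata1, Epor, Alas2, Slc4a1 and Car1 had 0 reads in all 6 libraries. Other regulators were read. Klf1 had 10 reads over the 6 libraries. Tal1 averaged 4.45 CPM in control and 23.6 CPM in cDKO (log2 fold change 2.37, adjusted p = 0.271, not called). The summed erythroid list stood at 347 to 386 CPM in control and at 1953 to 2619 CPM in cDKO. Most of the cDKO sum was Hbb-bt alone (mean 1632 CPM). Most of the control sum was Tfrc and Nfe2, at 226 and 125 CPM in control and 264 and 124 CPM in cDKO, neither of them called. Lymphoid genes were near 0 in both genotypes, with a summed level of 8.02 to 13.8 CPM, and 10 of the 14 present in the tables had no read. Of 4 megakaryocyte genes tested (25.0% called), Itga2b (CD41) rose by 3.50 (adjusted p = 1.54e-03), with 1.12 CPM in control and 12.9 CPM in cDKO.

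Stem and progenitor genes were divided. Of 19 tested, 8 rose and 4 fell (63.2% called, beside 19.2% over all genes), and the median log2 fold change was 0.23. With 1 library left out, 5 to 9 rose and 3 to 5 fell. Hlf, a transcription factor of haematopoietic stem cells, was absent or nearly so in control, at 0, 0 and 0.181 CPM, and reached 96.6, 32.8 and 282 CPM in cDKO (log2 fold change 10.58, SE 1.95, adjusted p = 0.0305). Its call was lost with any 1 control library left out and without cDKO replicate 1, and the adjusted p was 0.285 without both libraries of number 3. Erg, an ETS factor of stem cells, rose by 1.99 (SE 0.211, adjusted p = 1.69e-05), and Myc, a driver of growth, by 1.23 (SE 0.134, adjusted p = 2.22e-05). Hoxa9 itself stood at 2770, 2561 and 2369 CPM in control and at 4097, 3626 and 4414 CPM in cDKO (log2 fold change 0.64, SE 0.0852, adjusted p = 1.35e-04). Mef2c, a factor of lymphoid and myeloid progenitors, fell by 7.21 (SE 0.539, adjusted p = 8.67e-07), and Kit, the receptor for stem cell factor, by 0.91 (SE 0.147, adjusted p = 6.09e-04). Eya1 and Mecom had 0 reads in all 6 libraries.

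**Figure D2:**
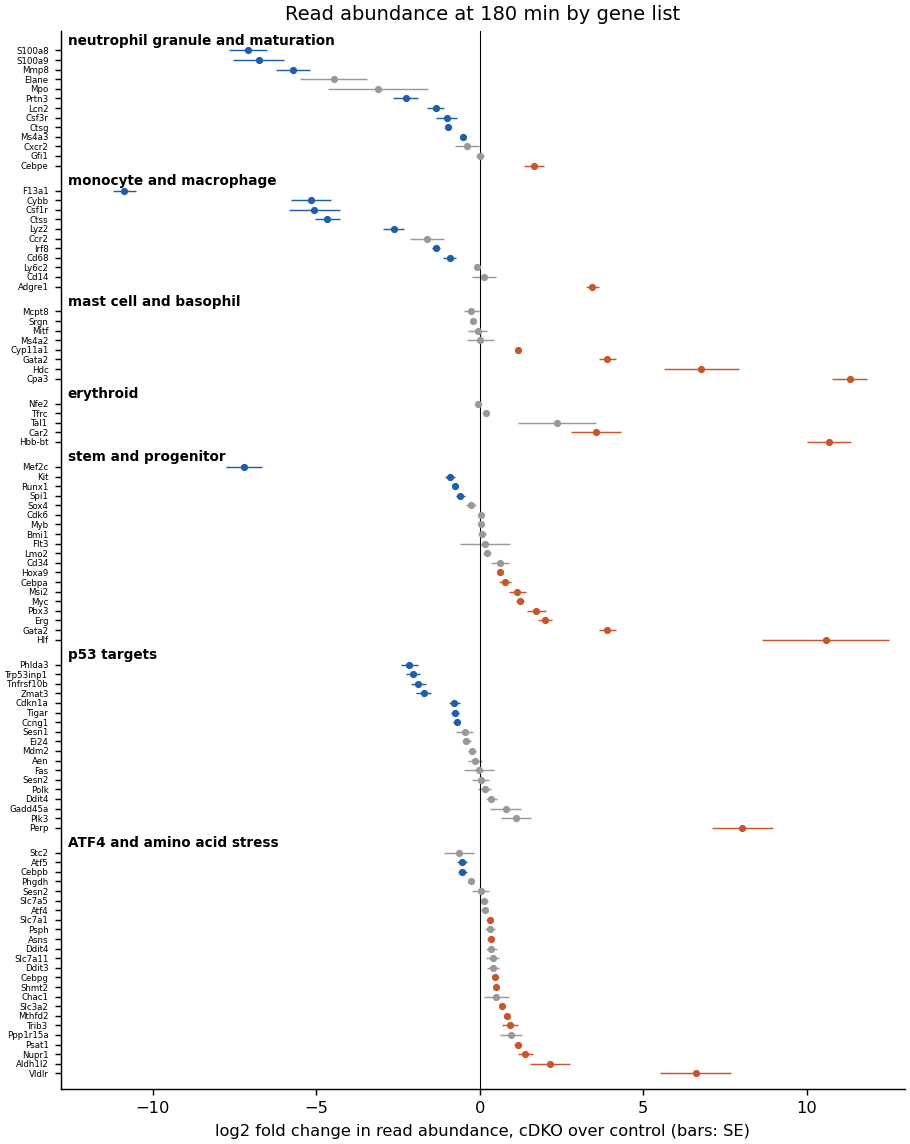
The log2 fold change in read abundance, cDKO over control at 180 min (x axis, with SE as bars), is shown for every tested member of 7 gene lists (y axis), in orange where called higher, in blue where called lower and in grey where not called. Members of the neutrophil and monocyte lists lay mostly to the left, with F13a1 at -10.87, whereas Cpa3, Hbb-bt and Hlf lay farthest to the right.

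Among called genes with at least 10 reads in each library, the 10 that rose most ranged from 3.71 (Itgb7, an integrin subunit) to 6.09 in log2 fold change. Ikzf2, the transcription factor Helios, led them, at 2.01, 7.74 and 11.8 CPM in control and at 427, 541 and 546 CPM in cDKO (SE 0.482, adjusted p = 2.19e-03). S100a6, a calcium-binding protein, followed at 4.99 (adjusted p = 6.94e-03), then Calcrl, the receptor for adrenomedullin and CGRP, at 4.55 (adjusted p = 0.0219) and Vcam1, an adhesion molecule that binds integrin VLA-4, at 4.29 (adjusted p = 0.0265). In most of these genes the cDKO cultures differed from each other: Vcam1 stood at 466, 182 and 692 CPM in them, and Gsn, the actin-severing protein gelsolin, at 254, 96.8 and 552 CPM. Calcrl, Vcam1 and Gsn were not called with any 1 control library left out or without cDKO replicate 1. The 10 that fell most ranged from -2.63 (Lyz2, lysozyme) to -3.49. Itsn1, an endocytic scaffold, stood at 36.3, 27.8 and 29.3 CPM in control and at 4.07, 2.44 and 1.88 CPM in cDKO (SE 0.290, adjusted p = 2.16e-06). Il6ra, the receptor for the IL-6 in the culture medium, stood at 68.8, 67.3 and 77.7 CPM in control and at 9.56, 8.14 and 4.13 CPM in cDKO (log2 fold change -3.32, SE 0.226, adjusted p = 8.67e-07).

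Some genes were read in 1 genotype alone. Among called genes, 23 had 0 reads in all control libraries, with Cpa3, 6330415B21Rik (a call lost with any 1 control library left out or without cDKO replicate 1) and Rab38 the highest of them in cDKO, and 12 had 0 reads in all cDKO libraries, with Zfp979, Pakap and Wfdc21 the highest in control. Against a floor of 3 counts over the empty group, Rab38, a small GTPase, was at least 172-fold higher in cDKO (adjusted p = 3.60e-07), and Zfp979, a zinc finger gene with 174, 209 and 245 reads in control, at least 204-fold lower (adjusted p = 9.28e-08). Pakap was at least 139-fold lower (adjusted p = 2.93e-07).

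Several regulators of cell survival differed as well. Of 18 p53 target genes tested, 7 fell and 1 rose (44.4% called, beside 19.2% over all genes), with a median log2 fold change of -0.32. Phlda3, an inhibitor of Akt, stood at 28.1, 30.0 and 28.7 CPM in control and at 8.95, 4.27 and 6.58 CPM in cDKO (log2 fold change -2.15, SE 0.259, adjusted p = 5.53e-05). Trp53inp1 fell by 2.04 (adjusted p = 1.26e-05) and Tnfrsf10b, a TRAIL death receptor, by 1.87 (adjusted p = 9.56e-05). The member that rose was Perp, a desmosomal gene, from 0.201, 0 and 0 CPM to 19.9, 40.9 and 10.3 CPM (log2 fold change 8.04, adjusted p = 4.71e-04). Of 11 Bcl2 family genes, 2 rose and 3 fell (45% called). Bcl2, which protects cells from apoptosis, was at 38.3, 33.9 and 50.3 CPM in control and at 163, 153 and 216 CPM in cDKO (log2 fold change 2.10, SE 0.171, adjusted p = 1.67e-05), and Bcl2l1 rose by 0.81 (adjusted p = 2.90e-03). The pro-apoptotic members Bax and Pmaip1 (Noxa) fell by 0.84 and 0.98 (adjusted p = 1.35e-03 and 7.48e-04), and Mcl1, a survival factor on chromosome 3, by 0.33 (adjusted p = 0.0309).

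The metabolic lists differed in their counts. Of 24 genes of the ATF4 and amino acid stress list, 11 rose and 2 fell (54.2% called, beside 19.2% over all genes). The median log2 fold change was 0.41, and 5 to 10 rose when each library was left out in turn. Psat1, of serine synthesis, stood at 214, 187 and 237 CPM in control and at 428, 476 and 551 CPM in cDKO (log2 fold change 1.17, SE 0.104, adjusted p = 6.97e-06). Mthfd2, of mitochondrial folate metabolism, rose by 0.83 (SE 0.0745, adjusted p = 3.73e-06). Atf4 itself averaged 437 ± 26.8 CPM in control against 496 ± 80.8 CPM (SD, n = 3) in cDKO, which did not pass the test (adjusted p = 0.337). In cholesterol synthesis, 1 of 20 genes rose and 2 fell (15% called, beside 19.2% over all genes). Cyp51, a sterol demethylase, rose by 0.51 (adjusted p = 6.96e-03), whereas Fdps and Pmvk, of the mevalonate pathway, fell by 0.85 and 0.94 (adjusted p = 4.77e-03 and 5.74e-03), and both of these lie on chromosome 3. In cholesterol uptake, transport and feedback, 1 of 17 rose and 4 fell (29.4% called), among them Soat1, which esterifies cholesterol, by 1.07 (adjusted p = 1.08e-04) and Srebf2, the transcriptional regulator of the pathway, by 0.63 (adjusted p = 1.86e-03). Of 22 glycolysis genes, 5 rose and 2 fell (31.8% called, 3 to 6 rising with 1 library left out), with Slc2a3, a glucose transporter, at 2.10 (adjusted p = 1.89e-04) and Hk3, a hexokinase of myeloid cells, at -5.65 (adjusted p = 4.56e-05). Of 74 oxidative phosphorylation subunits, 2 rose and 9 fell (14.9% called, median -0.07), 3 of the 9 lying on chromosome 3, and 5 to 12 fell with 1 library left out. Of 80 ribosomal protein genes 4 rose and 12 fell (20.0% called, median -0.03), 3 of the 12 lying on chromosome 3, and 1 to 6 rose and 6 to 12 fell with 1 library left out.

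Of 50 mRNA decay genes tested, 1 rose and 3 fell (8% called, beside 19.2% over all genes, median log2 fold change -0.01). Among 10 terminal nucleotidyltransferase and poly(A) polymerase genes, the 2 that fell were Tut4 and Tut7, and the 2 that rose (40.0% called in all) were Tent5a by 0.36 (adjusted p = 8.64e-03) and Tent4b by 0.50 (adjusted p = 6.26e-03). Of 25 genes of uridine uptake and salvage, through which 4SU enters the nucleotide pool, 3 rose and 1 fell (16.0% called). Nt5c3, a pyrimidine nucleotidase, rose by 1.00 (SE 0.110, adjusted p = 2.39e-05), and Slc29a3, a nucleoside transporter of lysosomes, fell by 0.75 (adjusted p = 0.0177).

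The let-7 microRNAs are known substrates of TUT4 and TUT7, which uridylate their precursors, with Lin28 as the partner where it is expressed. Members of the family act through a shared seed, bases 2 to 8, shown here in capitals in the mature RefSeq sequences (5′ to 3′) because the family is defined by it. The target list itself is of named genes and was not drawn from a search for seed matches.
mmu-let-7a-5p: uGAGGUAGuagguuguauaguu
mmu-let-7g-5p: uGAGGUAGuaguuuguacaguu
mmu-miR-98-5p: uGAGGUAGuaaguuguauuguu
Of 17 Lin28 and let-7 target genes tested, 5 rose and 4 fell (52.9% called, beside 19.2% over all genes), and the median log2 fold change was -0.02. With 1 library left out, 2 to 6 rose and 1 to 4 fell. Nras, on chromosome 3, fell by 0.44 (adjusted p = 1.75e-03). Lin28b was at 3.18 to 3.81 CPM in control and at 1.42, 0.407 and 0 CPM in cDKO (log2 fold change -2.56, SE 0.769, adjusted p = 0.0314), a call that was lost with any 1 control library left out and without cDKO replicate 2 or 3. Lin28a stood at 16.5 CPM in control and 26.2 CPM in cDKO (adjusted p = 0.184). The microRNAs themselves were not measured by these libraries.

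Chromosome 3 stood apart from the rest of the genome. Of its 478 tested genes, 240 were called lower and 16 higher in cDKO, where 10.0% and 9.17% of all genes were, and the median log2 fold change was -0.52. Over the other autosomes and the X chromosome the medians ranged from -0.01 to 0.09. The shift was present in each cDKO library, with medians of -0.51, -0.48 and -0.48 against the mean of the control libraries, while control libraries against the other controls gave 0.02, -0.03 and 0.02. Relative conversion rates of chromosome 3 genes did not show a comparable shift, with a median log2 fold change of 0.06 beside 0.03 over all genes tested. Fdps, Pmvk, Mcl1 and Nras, named above, lie on it. With chromosome 3 left out before normalization, 1645 genes were called, of which 1576 were also called with it.

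**Figure D3:**
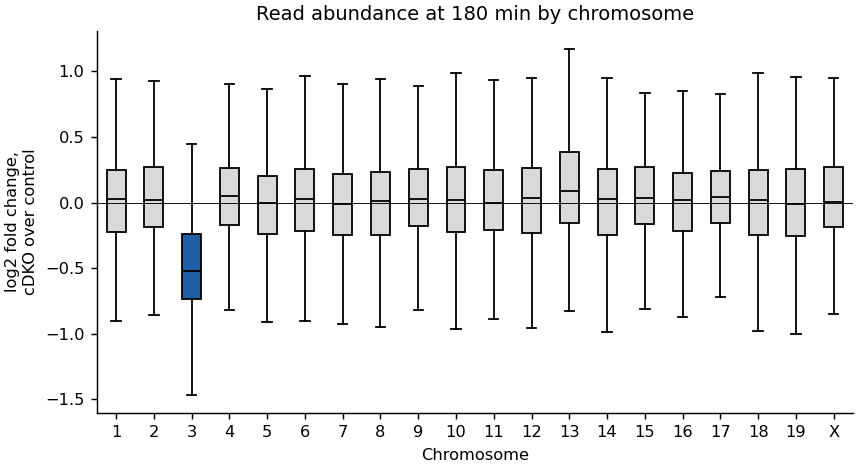
The log2 fold change in read abundance at 180 min, cDKO over control (y axis), is summarised for the tested genes of each chromosome (x axis), with the median as the line, the middle 50% of genes as the box and whiskers to the farthest gene within 1.5 box lengths. Chromosome 3 (blue) had a median of -0.52, with the boxes of the other autosomes and X around 0 (Y is not drawn).

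Once the library-wide difference was taken out, few genes differed in conversion rate. For the relative conversion rate at 180 min, 61 of 7407 genes tested (0.824%) passed an adjusted p of 0.05, with 52 (0.702%) higher and 9 (0.122%) lower in cDKO, and 644 had an unadjusted p below 0.05. The median log2 fold change over all genes was 0.03. The number called was 31, 33 and 40 without control replicate 1, 2 or 3 and 40 without cDKO replicate 3. It was 69 by DESeq2, 8 with all annotated lines of a gene summed, and 2 by limma on log2 rates, and those 2 were Cxcr4 and Snx18.

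Cxcr4 differed most. Its conversion rate at 180 min was 0.467%, 0.327% and 0.323% in control and 1.52%, 1.66% and 1.52% in cDKO, so the gene was more converted in cDKO although the libraries as a whole were less so. The log2 fold change in relative rate was 3.20 (SE 0.137, adjusted p = 3.00e-24). At 0 min the rates had been 1.86% ± 0.143 in control and 2.25% ± 0.280 in cDKO, and at 540 min they were 0.145% ± 0.0164 and 1.33% ± 0.0872 (SD, n = 3 each). Thus the control rate went down throughout the chase, while the cDKO rate stayed above 1% at every one of these times. The relative rate was already higher in cDKO at 0 min, by 1.44 on the log2 scale (adjusted p = 5.48e-13). Cxcr4 was the only gene called when the change from 0 to 180 min was compared between genotypes (1 of 9103, 0.0110%, by edgeR, against 542 at an unadjusted p below 0.05, with 2 called by DESeq2, Cxcr4 and Snx18). Its pooled rate at 180 min was 19.9% of that at 0 min in control and 69.2% in cDKO, a log2 difference of 1.75 in relative rate (SE 0.174, adjusted p = 2.79e-10). Read abundance of Cxcr4 was 200, 189 and 197 CPM in control and 167, 164 and 139 CPM in cDKO (log2 fold change -0.34, adjusted p = 0.0181, not called with any 1 control library left out).

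Snx18 also had a higher rate in cDKO at 180 min and 540 min, but not at 0 min, when the control mean was 2.23% ± 0.160 and the cDKO mean 1.75% ± 0.589 (SD, n = 3 each). At 180 min its rate was 0.528%, 0.531% and 0.519% in control and 1.12%, 1.13% and 0.883% in cDKO (log2 fold change in relative rate 2.10, SE 0.249, adjusted p = 8.28e-08). At 540 min control had come down to 0.0729% ± 0.0641, with cDKO at 0.924% ± 0.103 (SD, n = 3 each). Other genes with large differences were Rab3gap1, a subunit of a Rab3 GTPase-activating complex, at 1.21 (SE 0.228, adjusted p = 8.79e-04) and Timm17a, of the mitochondrial inner membrane translocase, at 1.10 (SE 0.157, adjusted p = 5.98e-06). On GRCm38, the intervals of Rab3gap1 (chromosome 1, 127942611 to 127943876), Cxcr4 (chromosome 1, 128588199 to 128588842) and Timm17a (chromosome 1, 135301535 to 135301917) are on the same chromosome, and Snx18 (chromosome 13, 113592179 to 113594608) is on that of Tut7 (chromosome 13, 59771879 to 59772859). All of these are 3′UTR intervals, and whether position on a chromosome bears on the rates was not tested. Libraries without 4SU were not used here, so how much of a gene's rate comes from fixed T-to-C differences in its sequence was not tested.

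**Figure D4:**
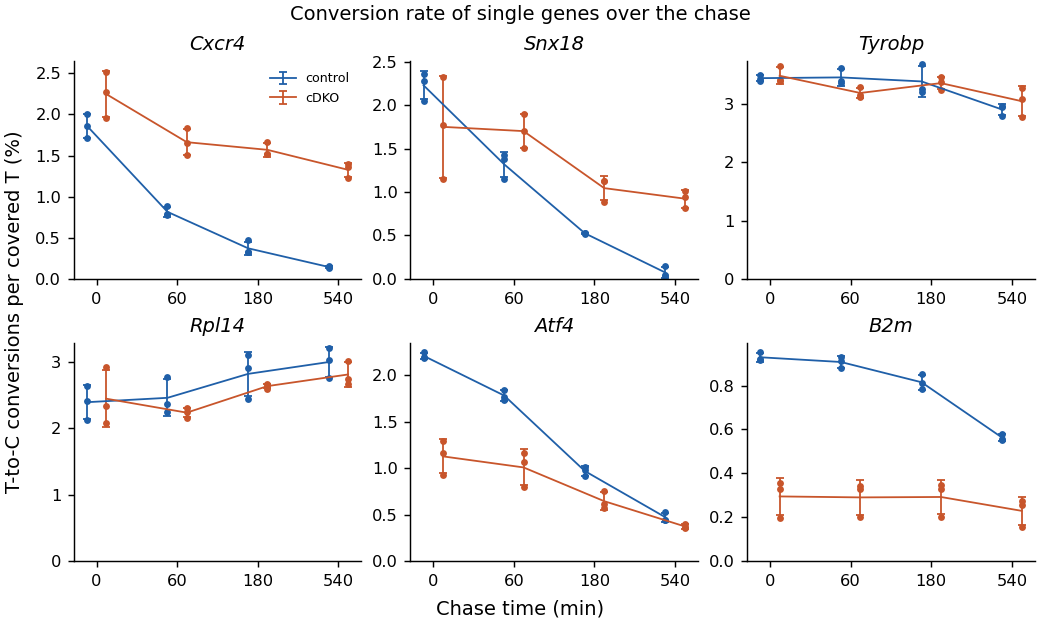
Conversion rates (y axis, percent of covered T positions) of 6 genes are plotted against chase time in minutes (x axis, times spaced evenly), with 1 point per library, lines through the means and SD as bars, control in blue and cDKO in orange. Cxcr4 and Snx18 fell in control and stayed near 1% in cDKO at 540 min, whereas Tyrobp and Rpl14 kept a high rate in both genotypes throughout.

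Many of the other called genes kept a large share of their rate to the end of the chase. In control, the pooled rate at 540 min was at least 50% of that at 0 min for 27 of the 52 genes called higher and for 5 of the 9 called lower, beside 412 of the 7407 tested (5.56%). Tyrobp, the adaptor DAP12 of myeloid receptors, had 3.21%, 3.69% and 3.26% in control and 3.24%, 3.37% and 3.46% in cDKO at 180 min, and 2.90% ± 0.0890 and 3.05% ± 0.253 at 540 min (SD, n = 3 each). Its rates overlapped between the genotypes, and relative to the library-wide rate, which was lower in cDKO, the log2 fold change was 1.11 (SE 0.105, adjusted p = 1.03e-10). Rpl14, of the large ribosomal subunit, was similar, at 2.44%, 3.10% and 2.90% in control and 2.66%, 2.64% and 2.59% in cDKO (log2 fold change 1.04, adjusted p = 5.25e-06). Of 71 ribosomal protein genes tested, 9 were higher in relative rate and none lower, beside 0.702% called higher over all genes. Their median log2 fold change was 0.00. Rplp1, an acidic stalk protein, had a control rate at 540 min that was 99.7% of that at 0 min. When genes that kept at least 50% of the control rate at 540 min were left out, a setting chosen after seeing the data, 24 of 6997 genes were called, 21 of them higher in cDKO.

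Called genes whose control rate had come down by 540 min included several regulators. Atf4, the transcription factor of amino acid stress, had rates of 0.978%, 1.02% and 0.917% in control and 0.612%, 0.756% and 0.569% in cDKO at 180 min, where the library-wide rates differed by a larger factor (log2 fold change in relative rate 0.53, SE 0.0968, adjusted p = 6.62e-04). Its control rate at 540 min was 21.5% of that at 0 min. Socs2, a feedback inhibitor of cytokine signalling, was at 0.79 (adjusted p = 7.06e-03) and Etv6, a transcriptional repressor needed by stem cells that was picked after its values were seen, at 0.73 (adjusted p = 5.36e-03). Socs2 was not called without control replicate 1 or without cDKO replicate 3. Dusp6, a phosphatase that acts on ERK, was at 1.04 (SE 0.274, adjusted p = 0.0474), with cDKO rates of 0.312%, 0.700% and 0.514% that overlapped those of control, and its call was lost with any 1 library other than cDKO replicate 1 left out. Of the 61 genes called in relative rate, 60 could be tested at 0 min, where 57 had the same sign and 21 were called in the same direction, while Socs2, Etv6 and Dusp6 were not called there (adjusted p = 0.938, 0.836 and 0.476).

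The 9 genes called lower in relative rate differed less, apart from Mgst3. Ctsd, cathepsin D, had 0.767%, 0.797% and 0.864% in control and 0.302%, 0.318% and 0.204% in cDKO (log2 fold change -0.46, SE 0.0958, adjusted p = 3.69e-03). B2m, the light chain of MHC class I, was at -0.39 (SE 0.0693, adjusted p = 3.44e-04), with rates of 0.815% ± 0.0340 in control and 0.292% ± 0.0788 in cDKO (SD, n = 3). Its sign changed when reads with a conversion were counted in place of conversions, to 0.55. The endoplasmic reticulum chaperone Calr was at -0.29 (adjusted p = 6.85e-03) and Eef1a1, translation elongation factor 1 alpha, at -0.24 (adjusted p = 0.0185), neither of them called without control replicate 1 or without control replicate 2. Mgst3, a microsomal glutathione transferase, had 1.30%, 3.62% and 2.15% in control and 0% in each cDKO library, over as few as 324 covered T positions in a library (adjusted p = 0.0312), a call that was lost with any 1 cDKO library left out.

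**Figure D5:**
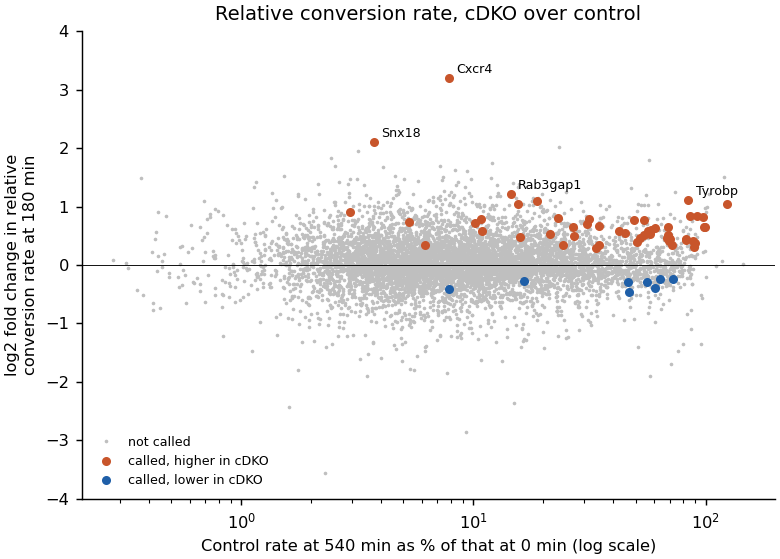
The log2 fold change in relative conversion rate at 180 min, cDKO over control (y axis), is plotted for single genes against the pooled control rate at 540 min as a percent of that at 0 min (x axis, log scale), with called genes in orange (higher) and blue (lower). It draws 7341 genes and leaves out 66 that had no control conversion at 540 min or lay beyond 4 on the y axis, Mgst3 among them. Cxcr4 and Snx18 lay above all others at low values of x, and most of the called genes lay at the right.

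Abundance and relative rate could be set side by side for 7407 genes. Of the 61 called in relative rate, 20 were also called in abundance, beside 19.2% called in abundance over all genes tested. In 15 of these 20 the gene was less abundant and had a higher relative rate in cDKO, among them Tyrobp, S100a11, Prtn3, Snx18, Cxcr4, Ogt and Dusp6. They differed in how the control rate ran from 0 to 540 min. It changed little in Tyrobp (3.44% to 2.90%) and S100a11 (1.68% to 1.52%). In Snx18 (2.23% to 0.0729%) and Dusp6 (2.28% to 0.326%) it fell far. Tyrobp reads stood at 320, 350 and 326 CPM in control and at 157, 152 and 112 CPM in cDKO (log2 fold change -1.26, SE 0.115, adjusted p = 1.04e-05). Gramd1a, Cyrib and Foxp1 were higher in both measures. Foxp1, a forkhead factor, had a log2 fold change of 0.34 in each of them (adjusted p = 0.0139 in abundance and 0.0468 in relative rate), and neither call held with any 1 control library left out. Eef1a1 was more abundant with a lower relative rate, and Cct3, a chaperonin subunit on chromosome 3, was lower in both. No list other than the ribosomal proteins had more than 2 members called in relative rate.

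The relation to the speed of label loss was examined by sorting the 7407 genes into 4 equal classes by their control rate at 540 min relative to 0 min. The median of this share was 2.93% in the class that lost label fastest and 29.4% in the class that lost it most slowly. In each library the median log2 relative rate rose from the fastest to the slowest class, by 0.68, 0.74 and 0.78 in control and by 0.66, 0.67 and 0.66 in cDKO. The difference was 0.74 ± 0.0512 in control and 0.66 ± 0.00940 in cDKO (SD, n = 3), lower in cDKO by 0.07, for which the exact permutation test gave its smallest possible p, 0.1. The classes were sorted on control rates alone, and how far this widened the difference in control was not tested. In the fastest class the median log2 relative rate was -0.55 ± 0.0440 in control and -0.47 ± 0.0150 in cDKO, while the slow class stood at 0.19 in both. With a floor rate of 0.141% subtracted, the difference turned its sign, to 0.12 (exact permutation p = 0.2), and in the turnover classes taken from the control rate at 60 min relative to 0 min it was -0.177 (exact permutation p = 0.1). Of the 61 genes called in relative rate, 48 were in the slowest class, 41 of them higher in cDKO and 7 lower.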

How the data were processed

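SLAM-seq libraries of the 3′ ends of mRNA (QuantSeq) from 6 cultures at 180 min were compared, 3 per genotype, which the methods call biological triplicates. The authors aligned reads to GRCm38 and ran SlamDunk 0.4.3, and deposited, for each annotated 3′UTR interval, whole-number counts of reads, covered T positions and T-to-C conversions, together with the conversion rate as a fraction and reads as CPM. Settings for masking sequence variants are not given in the sources used here. Only the counts were used. Identical intervals were kept once. Where intervals of 1 gene overlapped on the same strand, the longest was kept (29021 kept of 30527). The kept intervals were summed per gene (20867 genes). Abundance was tested on genes passing filterByExpr with edgeR 4.0.16 (TMM, quasi-likelihood), and conversions with an offset of log covered T positions, on genes with at least 100 covered T positions in each library and 50 conversions in all; the relative rate adds each library's rate to the offset. P-values were adjusted by Benjamini-Hochberg over all genes tested and called under 0.05. DESeq2 1.42.0, limma 3.58.1 (pseudocount 0.5), R 4.3.3 and SciPy 1.17.1 were used besides.

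Gene sets and comparisons were chosen with earlier results of these data known. Genes named were those largest in change or level, those read in 1 genotype, and leading or defining members of lists. Ddx3y, Xist, Cebpe, Irf8, Kit, Mcl1, Mthfd2, Nras, Rplp1, Ogt and Etv6 were picked after their values were seen. Fits were tested on simulated data. Counts lack molecular identifiers, so floors (3 counts) cover counting error only, and QuantSeq depth of 4915696 to 5532672 3′UTR reads limits low genes. Genes that overlap another (261) may share reads. Some items are not reported here.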

Additional observations from a re-analysis of the deposited data

Results flagged for a closer look

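In Cxcr4 the change in relative conversion rate from 0 to 180 min differed between the genotypes (edgeR interaction term, log2 1.7546, SE 0.174, adjusted p = 2.79e-10), with cDKO keeping a larger share of its rate. The times are separate batches per the labels. How far batch, or a fixed T-to-C difference in the sequence, enters this value was not tested.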

How the results depend on the processing

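The library-wide rate kept its direction in every alternative run, and the number of genes called in abundance at 180 min stayed within 1.5 times of 1949 in all that kept every library (1645 to 2133), while leaving out 1 library gave 1196 to 2255. The relative conversion rate at 180 min was more sensitive: 2 genes were called by limma on log2 rates, 39 with a floor rate subtracted, 8 with all lines of a gene summed, 24 without genes that kept at least 0.5 of their control rate at 540 min (added after seeing the data), and 31 to 68 with 1 library left out; Cxcr4 and Snx18 were called in each of these. In B2m, relative conversion rate at 180 min turned from -0.39 to 0.5502 when reads with a conversion were counted. For the retained conversion rate, 180 against 0 min, between genotypes, 1 gene became 2 with DESeq2, 8 with the floor subtracted and 1 to 4 with 1 library left out. For the abundance change, 180 against 0 min, between genotypes, 0 to 2 were called with 1 library left out. In the turnover classes, subtracting the floor rate turned the difference of -0.07 to 0.123, and the cause was not tested.

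At 180 min, control and cDKO libraries of the same number did not deviate together (correlations of -0.04 to 0.02), so numbers were not taken to pair the genotypes. This does not bear on libraries of 1 genotype and number at different times. Elane in cDKO, for example, stood at 169, 27.2 and 15.3 CPM at 0 min and at 154, 28.5 and 14.3 CPM at 180 min. The main tests of the change from 0 to 180 min had no term for the number. With the replicate number as a block, 1817 genes were called in abundance at 180 min and 63 for the relative conversion rate at 180 min. For the retained conversion rate, 180 against 0 min, between genotypes, 4 were called with the block (Cxcr4, Gda, Snx18 and Socs2). For the abundance change between these times, 0 were.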

Other observations

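Beyond the lists described above, DNA replication genes were mostly above 0 in log2 fold change: of 25 initiation genes tested, 3 were called higher (Mcm3, Mcm6 and Orc2) and none lower (12.0% called, beside 19.2% over all genes), and 23 were above 0, with a median of 0.18 beside 0.01 over all genes tested. For mitotic genes the counts were even, with 3 of 30 higher, 3 lower (20.0% called) and a median of -0.03; with 1 library left out, 0 to 2 were higher. Immediate early and feedback genes had 6 of 24 higher and 2 lower (33.3% called, median 0.40), and 3 to 9 higher and 1 to 4 lower with 1 library left out. The higher ones included Jund and Klf6, and the lower ones were Dusp6, a phosphatase of ERK, and Id2. Of 14 interferon response genes 3 were lower (Irf1, Oas1a and Trim30a) and none higher (21.4% called, near the share over all genes). Of 8 chemokine and receptor genes, 2 were lower, Ccl6 and Cxcr4 (25.0% called, beside 19.2% over all genes), and 0 to 4 were with 1 library left out. Of 15 microRNA processing and silencing genes, 2 were lower (13.3% called), Tnrc6c and Adar, the latter on chromosome 3.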
